A study of Mus musculus with 30 samples.

Results

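Type X collagen and the genes that set the pace of chondrocyte hypertrophy were followed through the healing of a broken bone. The 5 genes are *Col10a1*, *Pth1r*, *Pthlh*, *Mef2c* and *Runx3*, taken by symbol out of 55416 gene IDs counted in 30 fracture calluses, and all 5 passed the filter on low counts in every comparison. Each callus came from the tibia of a young adult mouse and was taken at 3, 6, 10 or 14 days post fracture (dpf). One group was P-Apex1 KO (Prrx1-Cre+;Apex1 C/C, Apex1 KO in the labels), in which Prrx1-Cre removes both floxed copies of *Apex1* (APE1, a DNA repair and redox factor) from the limb bud mesenchyme and its descendants. Callus cells of other origin, such as blood cells and endothelium, keep it. The mice called WT were littermates of 3 genotypes (Prrx1-Cre+/- with Apex1 C/+, and Apex1 C/C or Apex1 C/+ without Cre), so some of them can lack a copy of *Apex1* in the mesenchyme. The Cre line is on a B6 background, and the fracture was closed and not stabilized. There were 4 WT and 4 KO mice at 3-dpf, 5 and 3 at 6-dpf, 4 and 3 at 10-dpf and 4 and 3 at 14-dpf, each replicate being taken as 1 mouse. Both sexes were present in each group up to 10-dpf. At 14-dpf the 3 KO mice were female and 3 of the 4 WT mice were male, so a difference corrected for sex rests on a single WT female there.

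When a tibia heals without fixation, cartilage forms first and bone replaces it, as in the growth plate. Chondrocytes stop dividing, swell and switch from type II to type X collagen before the matrix mineralizes. A feedback loop times this step. Prehypertrophic cells release Indian hedgehog (*Ihh*), which keeps up parathyroid hormone-related protein (PTHrP, encoded by *Pthlh*), and PTHrP acts on its receptor PTH1R (*Pth1r*) to hold chondrocytes back from hypertrophy. The transcription factors MEF2C and RUNX3, the latter together with RUNX2, push the other way and switch on *Col10a1*. None of these genes belongs to chondrocytes alone. Osteoblasts carry *Pth1r*, muscle, endothelial and myeloid cells express *Mef2c*, and lymphocytes use *Runx3*. Bulk tissue was sequenced, so fewer cells of a type and less RNA per cell cannot be told apart in any value given here.

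The genes lie on 5 chromosomes of GRCm39, the build the authors aligned to. *Col10a1* (ENSMUSG00000039462) is on chromosome 10 from 34265971 to 34273081, *Pth1r* (ENSMUSG00000032492) on chromosome 9 from 110550767 to 110576259, *Pthlh* (ENSMUSG00000048776) on chromosome 6 from 147153599 to 147165681, *Mef2c* (ENSMUSG00000005583) on chromosome 13 from 83652064 to 83815555 and *Runx3* (ENSMUSG00000070691) on chromosome 4 from 134847952 to 134905301. All are protein-coding. Annotated genes on the opposite strand overlap *Col10a1* (*Nt5dc1*), *Pth1r* (*Myl3*, a muscle myosin light chain), *Mef2c* (2 genes) and *Runx3* (1 gene), and the counting used the strand. No gene on the same strand overlaps any of the 5.

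Because 2 of the 5 genes encode DNA-binding factors of the hypertrophic program, the 250 bases before each RefSeq start of the 5 genes (10 starts) were searched for the letters these factors prefer. Searched on both strands were the RUNX motif TGTGGT, the MEF2 motif, the AP-1 motif TGANTCA and TATAAA, the last on the gene's strand only. Each was found before a single start of a single member. *Col10a1* held TATAAA, as did 7.59% of 32851 mouse starts, a *Pth1r* start held a MEF2 match (2.92% of all starts), a *Runx3* start held 2 RUNX motifs (14.0%) and a *Mef2c* start held an AP-1 match (6.75%). A match in such a window is a description of its letters and shows no binding. The first 3 are shown from RefSeq, 5′ to 3′ on the gene's strand, up to the first annotated exon, with the matches in capitals. They were placed on GRCm39 by exact match, at chr10:34265727-34265970 for *Col10a1* (plus strand), chr9:110571788-110571928 for *Pth1r* (minus strand, an inner start of the gene, within introns of its longer transcripts) and chr4:134847706-134847951 for *Runx3* (plus strand).
Col10a1: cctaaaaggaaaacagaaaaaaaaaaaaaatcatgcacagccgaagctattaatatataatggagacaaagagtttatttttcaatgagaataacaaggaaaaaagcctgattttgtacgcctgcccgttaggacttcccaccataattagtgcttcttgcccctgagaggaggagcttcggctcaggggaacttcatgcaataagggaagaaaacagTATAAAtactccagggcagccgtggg
Pth1r: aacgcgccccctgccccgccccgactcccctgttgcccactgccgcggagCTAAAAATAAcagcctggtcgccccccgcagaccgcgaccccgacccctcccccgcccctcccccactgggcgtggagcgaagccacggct
Runx3: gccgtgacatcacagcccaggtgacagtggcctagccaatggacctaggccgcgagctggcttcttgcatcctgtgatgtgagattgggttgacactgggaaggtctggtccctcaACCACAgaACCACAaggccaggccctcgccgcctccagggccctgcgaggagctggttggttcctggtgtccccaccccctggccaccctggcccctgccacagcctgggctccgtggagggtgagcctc
The TATAAA of *Col10a1* runs from 32 to 27 bases before its start. No RUNX or MEF2 match was found in that window, and a window of this size says nothing about enhancers.

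Between 18334389 and 43111491 reads were counted on genes in a library. Levels are counts per 1000000 (CPM) with TMM scaling over all 30 libraries. Within each time point KO was set against WT by edgeR's quasi-likelihood test, with a term for sex. All genes tested entered the adjustment of p-values, and 0.05 was the threshold. A ± stands for the standard error after a log2 fold change and for the SD after a level, and p-values measure the spread between these mice only. The deleted gene checks the labels. *Apex1* ran from 26.5 to 33.1 CPM in WT and from 18.4 to 34.6 CPM in the libraries labelled KO at 3-dpf, where it was not called lower (log2 fold change -0.15 ± 0.19, adjusted p = 0.927). At 6-dpf the ranges were 20.7 to 28.9 in WT and 15.1 to 15.9 CPM in KO (-0.67 ± 0.11, adjusted p = 0.0071), at 10-dpf 17.0 to 27.5 and 14.0 to 16.8 CPM (-0.65 ± 0.13, adjusted p = 0.0278), and at 14-dpf 19.8 to 27.2 and 14.2 to 18.6 CPM (-0.29 ± 0.19, adjusted p = 0.367). The groups did not overlap from 6-dpf on. At 3-dpf the direction of any difference therefore rests on labels that the *Apex1* level does not set apart.

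Compared with WT of the same day, *Col10a1* and *Pth1r* were lower in KO callus at 6-dpf, and *Pth1r* and *Mef2c* at 10-dpf. At 14-dpf *Pth1r* was lower again, while *Col10a1* passed the test as higher. Of the 5 genes, 2 were called at 6-dpf, where 10.9% of all 20260 genes tested were called, and both were lower (5.61% of all genes were lower and 5.31% higher). At 10-dpf 2 were called, both lower (6.46% of 18910 genes were called and 3.44% were lower, 3.01% higher). At 14-dpf 1 was lower and 1 higher, beside 11.3% of 20228 genes called, 7.04% lower and 4.28% higher. At 3-dpf 0 of the 5 passed edgeR's test and 0 had an unadjusted p under 0.05, DESeq2 called 0 of them (0.428% of all genes), and edgeR called 0% of 19866 genes (6.12% had an unadjusted p under 0.05). Without adjustment, 4 of the 5 had a p under 0.05 at 6-dpf (26.2% of all genes), 4 at 10-dpf (24.3%) and 2 at 14-dpf (27.6%). DESeq2 called 4 members at 6-dpf (16.2% of all genes), 3 at 10-dpf (11.6%) and 2 at 14-dpf (15.1%). *Pth1r* was thus the member called at 3 of the 4 time points. At none of the 4 did edgeR's fit of that day alone call *Pthlh* or *Runx3*. Other fits called *Runx3* at 6- and 14-dpf.

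**Figure D1:**
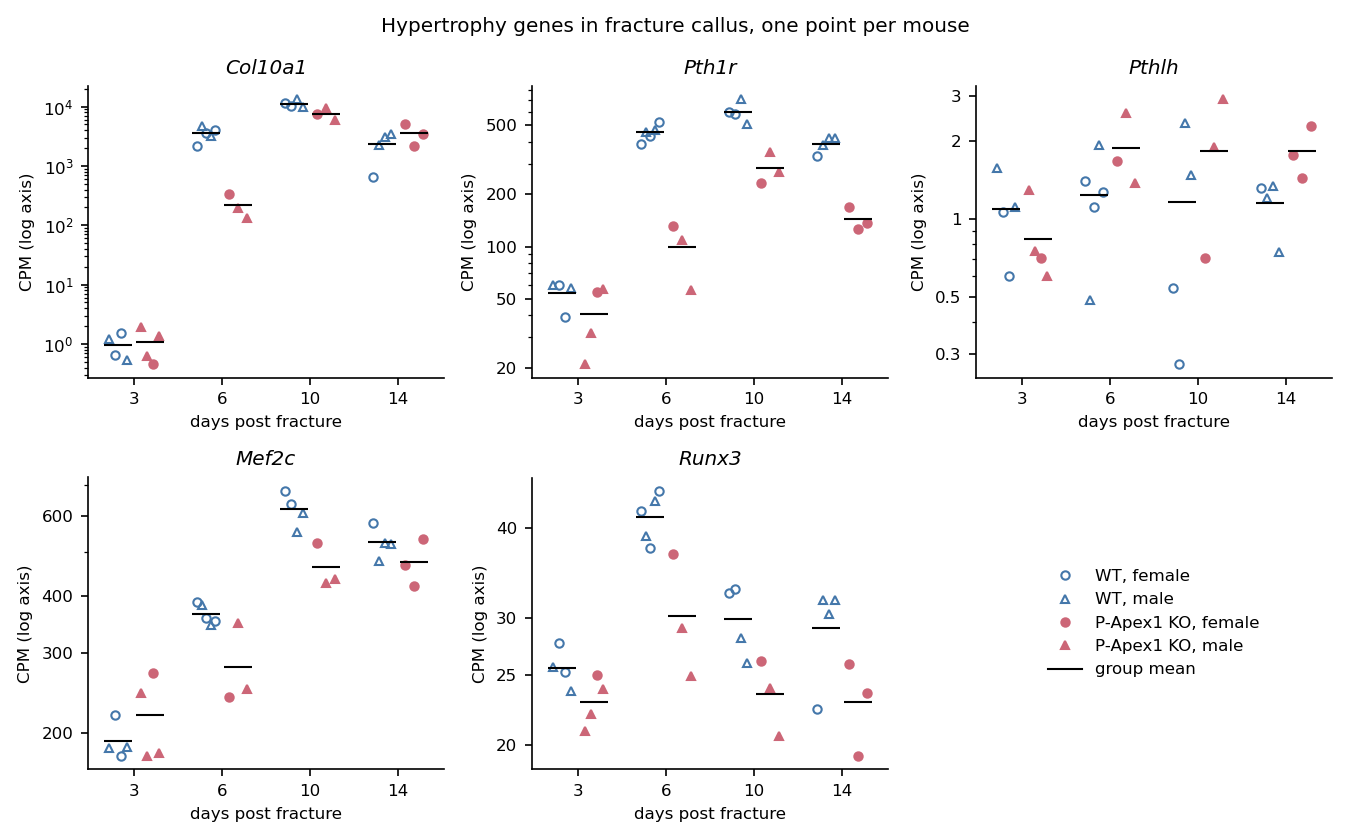
Level of the 5 genes in each of the 30 mice, in CPM on log axes, against days post fracture; circles are females, triangles males, open blue WT, filled red P-Apex1 KO, and lines group means. *Col10a1* climbs from 0.453 to 1.93 CPM at 3-dpf to 9878 to 13266 CPM in WT at 10-dpf, the KO mice of 6-dpf lie at 134 to 331 CPM, and the WT female of 14-dpf is the lowest *Col10a1* value of its day.

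*Col10a1*, the defining collagen of hypertrophic cartilage, was almost silent at 3-dpf. Its level was 1.21, 0.658, 1.51 and 0.529 CPM in the WT mice, on 18 to 53 reads, and 1.93, 0.624, 0.453 and 1.38 CPM in the libraries labelled KO. The groups overlapped, and the log2 fold change was 0.01 ± 0.60 (adjusted p = 0.998). At 6-dpf it was 2188, 4646, 3630.3, 3179 and 4098 CPM in WT and 331, 199 and 134 CPM in KO, so the highest KO mouse lay far under the lowest WT mouse. KO callus held 0.064 of the WT level (log2 fold change -3.96 ± 0.37, adjusted p = 0.000623). Leaving out any 1 mouse gave -4.53 to -3.72 with the call kept. At 10-dpf the WT mice had 11397, 10339, 13266 and 9878 CPM and the KO mice 7465, 9309 and 5943 CPM. The KO mice were again all lower, as 10.5% of the genes were, but a log2 difference of -0.57 ± 0.21 did not pass the test (adjusted p = 0.1499). DESeq2 called it (-0.57, adjusted p = 0.0126), as did edgeR without the filter on low counts (-0.57, adjusted p = 0.0294).

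At 14-dpf *Col10a1* was higher in KO on average, but the size of the difference and its call depended on the only WT female. The WT values were 651 CPM in the female and 2206, 3125 and 3386 CPM in the 3 males, and the 3 KO females had 4992, 2122 and 3476 CPM. The ranges overlapped. With sex in the model KO was higher (log2 fold change 2.46 ± 0.50, adjusted p = 0.0234), and the same fit put males 2.16 ± 0.49 above females (adjusted p = 0.801). That sex term was 0.37, -0.21 and 0.08 at 3-, 6- and 10-dpf. Without the sex term the difference was 0.63 (adjusted p = 0.397), and without that term and the WT female it was 0.32 (adjusted p = 0.453), where all WT mice are male, all KO mice female, and sex and genotype cannot be told apart. The call was also lost without WT replicate 3 (2.46, adjusted p = 0.0544), without the filter on low counts (2.46, adjusted p = 0.133) and with all 30 samples in 1 model (0.80, adjusted p = 0.223). The WT female (replicate 1) also had the highest summed level of 10 skeletal muscle genes among the WT mice of that day, 5492 CPM against 1516 to 1837 CPM in the males, and the lowest summed level of 12 cartilage genes, 4702 CPM against 7792 to 9671 CPM. In the KO mice the muscle sum was 3599, 11827 and 13568 CPM. The part of these differences in the *Col10a1* values was not tested.

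**Figure D2:**
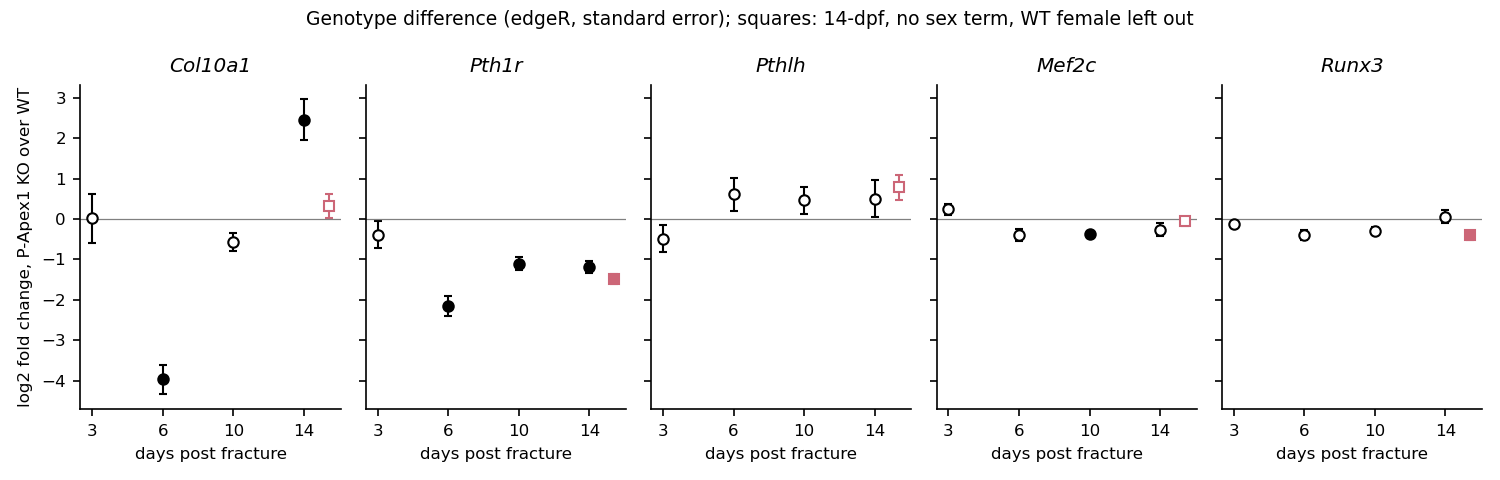
Log2 fold change of P-Apex1 KO over WT with its standard error (edgeR, sex in the model) for each gene at 3, 6, 10 and 14 days post fracture; filled symbols passed an adjusted p of 0.05, and red squares are 14-dpf values with no sex term and without the WT female. *Pth1r* stays below 0 at each point from 6-dpf on, while *Col10a1* at 14-dpf moves from 2.46 to 0.32 between the circle and the square.

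*Pth1r*, the receptor that receives the PTHrP signal, was the member with the most lasting loss. At 3-dpf it stood at 59.7, 59.7, 39.3 and 57.7 CPM in WT and 20.9, 31.8, 54.5 and 56.5 CPM in the libraries labelled KO, with overlap (log2 fold change -0.39 ± 0.33, adjusted p = 0.897). At 6-dpf the WT mice had 389, 460.4, 434, 472 and 525 CPM and the KO mice 131, 109.8 and 56.3 CPM. KO callus thus held 0.226 of the WT level, without overlap (-2.14 ± 0.24, adjusted p = 0.0015). At 10-dpf the values were 599.8, 579.7, 709 and 512 CPM in WT and 233, 350.2 and 269.5 CPM in KO (-1.11 ± 0.16, adjusted p = 0.0132). At 14-dpf they were 331, 387, 425 and 424 CPM in WT and 168, 127 and 136 CPM in KO (-1.18 ± 0.15, adjusted p = 0.00314). No KO mouse reached a WT mouse on any of these 3 days. Genes with every KO mouse lower made up 11.9% of all genes at 6-dpf, 10.5% at 10-dpf and 23.4% at 14-dpf. The 10-dpf call was lost without KO replicate 1 (-0.98, adjusted p = 0.0956) or WT replicate 1 (-1.08, adjusted p = 0.0579). At 14-dpf each of 9 settings with all mice kept the call, between -1.46 and -0.91, as did the fit with neither the sex term nor the WT female (-1.48, adjusted p = 0.000292).

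*Pthlh*, which encodes the ligand of that receptor, was scarce in every callus. Counts ran from 6 to 88 reads per library, so counting error weighs on each value. It had 1.57, 1.07, 0.602 and 1.12 CPM in WT and 1.29, 0.749, 0.708 and 0.601 CPM in the libraries labelled KO at 3-dpf, with overlap. At 6-dpf the WT mice had 1.41, 0.488, 1.11, 1.94 and 1.27 CPM and the KO mice 1.67, 2.56 and 1.38 CPM. At 10-dpf these were 0.540, 0.274, 2.36 and 1.48 CPM in WT and 0.707, 1.90 and 2.91 CPM in KO. Both groups were split by sex on that day, the females (WT replicates 1 and 2, KO replicate 1) having the 3 lowest values, with a male-minus-female log2 difference of 2.05 ± 0.36 (adjusted p = 0.0851). At 14-dpf the KO mice, at 1.77, 1.44 and 2.28 CPM, all lay above the WT mice at 1.31, 1.21, 1.34 and 0.743 CPM, as held for 18.5% of genes. No genotype difference passed the test. The log2 fold changes were -0.48 ± 0.34 (adjusted p = 0.876), 0.61 ± 0.41 (adjusted p = 0.404), 0.46 ± 0.33 (adjusted p = 0.435) and 0.50 ± 0.45 (adjusted p = 0.512) in the order of the days.

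*Mef2c*, which encodes a MADS-box factor that drives hypertrophy, differed little between genotypes. Its level at 3-dpf was 185, 219, 178 and 186 CPM in WT and 245, 178, 270.4 and 180.4 CPM in the libraries labelled KO (log2 fold change 0.24 ± 0.13, adjusted p = 0.857). At 6-dpf WT had 388, 381, 358, 345 and 352 CPM and KO 239, 349 and 249 CPM. KO replicate 2 reached into the WT range, and -0.39 ± 0.14 did not pass (adjusted p = 0.111), though DESeq2 called it (adjusted p = 0.0401), as did edgeR without KO replicate 2 (-0.56, adjusted p = 0.0164). At 10-dpf WT had 680.2, 637, 553 and 608 CPM and KO 522, 428 and 436 CPM, without overlap. The difference passed narrowly (-0.38 ± 0.09, adjusted p = 0.0486). It did not pass with library size in place of TMM, with no sex term, or without any 1 of WT replicates 1, 2 and 3 and KO replicates 1, 2 and 3, with log2 fold changes of -0.43 to -0.30. At 14-dpf the groups overlapped, with 578, 477, 522 and 520.5 CPM in WT and 468, 419 and 534 CPM in KO (-0.26 ± 0.15, adjusted p = 0.316).

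*Runx3*, a partner of RUNX2 in chondrocyte maturation, showed small genotype differences. WT mice had 25.6, 27.7, 25.2 and 23.8 CPM and the libraries labelled KO 20.9, 22.0, 24.96 and 23.9 CPM at 3-dpf (log2 fold change -0.13 ± 0.08, adjusted p = 0.870). At 6-dpf the levels were 42.3, 38.95, 37.5, 43.6 and 45.1 CPM in WT and 36.8, 29.0 and 24.9 CPM in KO. All KO mice lay below all WT mice, yet -0.40 ± 0.12 stayed above the threshold (adjusted p = 0.056). DESeq2 (adjusted p = 0.0293), edgeR without a filter (0.0317), without the sex term (0.039) and with all 30 samples in 1 model (0.0168) called it lower. At 10-dpf WT had 32.5, 32.9, 28.1 and 26.0 CPM and KO 26.1, 24.0 and 20.5 CPM, overlapping by the highest KO mouse (-0.29 ± 0.09, adjusted p = 0.0969). At 14-dpf the WT female had 22.4 CPM, the WT males 31.8, 30.4 and 31.7 CPM and the KO mice 25.9, 19.3 and 23.6 CPM. Fitted on that day alone with sex in the model, the difference was 0.06 ± 0.17 (adjusted p = 0.856). It was -0.40 without the sex term and the WT female (adjusted p = 0.032), with sex and genotype inseparable, and -0.43 with all 30 samples in 1 model (adjusted p = 0.0208), so the sign differed between fits.

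The course over time was tested between days whose samples are named alike, 3 with 6-dpf and 10 with 14-dpf. The naming changes in between, so a batch and the step from 6- to 10-dpf cannot be told apart, and values of those days are only set side by side. For 3-dpf the paper describes tissue cut out near the fracture, and for 6-dpf the whole callus. A part of dissection in the changes from 3- to 6-dpf cannot be told apart from time. From 3- to 6-dpf in WT callus *Col10a1* rose by 11.80 ± 0.58 on the log2 scale, *Pth1r* by 3.02 ± 0.31, *Mef2c* by 0.89 ± 0.14 and *Runx3* by 0.65 ± 0.09, the highest adjusted p being 0.000181. These are 4 of 5 members, beside 30.5% of 20468 genes called and 15.4% called higher. *Pthlh* did not pass (0.20 ± 0.36, adjusted p = 0.728). In KO callus 3 of 5 rose, *Col10a1* by 7.66 ± 0.52 (adjusted p = 2.94e-06), *Pth1r* by 1.26 ± 0.31 (adjusted p = 0.0177) and *Runx3* by 0.39 ± 0.10 (adjusted p = 0.0181), beside 14% of genes called and 7.1% called higher. Without KO replicate 1 or KO replicate 2 of 6-dpf only *Col10a1* remained called there. *Pthlh* stood at 1.18 ± 0.40 (adjusted p = 0.0638) and *Mef2c* at 0.36 ± 0.15 (adjusted p = 0.134).

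The rise of *Col10a1* between 3- and 6-dpf was smaller in KO by 4.13 ± 0.66 on the log2 scale, and this difference itself passed the test (log2 -4.13, adjusted p = 0.00839). By edgeR it was the 1 member called, beside 1.3% of genes called and 0.987% called lower, and DESeq2 called 2 members beside 3.51% of genes. For *Pth1r* the difference of the rises was -1.76 ± 0.43 (adjusted p = 0.0671). It passed under DESeq2 (-1.79, adjusted p = 0.000995), with a minimum of 10 counts in every sample (-1.76, adjusted p = 0.0466) and with all 30 samples in 1 model (-1.80, adjusted p = 0.00834). It also passed without KO replicate 1 of 3-dpf (-1.97, adjusted p = 0.0128), a library that had the highest muscle sum (13536 CPM) and the lowest cartilage sum (223 CPM) of that day. From 10- to 14-dpf in WT *Col10a1* fell by 2.53 on the log2 scale (standard error 0.43, adjusted p = 0.00333) and *Pth1r* fell by 0.69 (standard error 0.13, adjusted p = 0.00458), 2 of 5 members beside 11.1% of 19705 genes called and 4.92% called lower. In KO 0 of 5 passed edgeR's test, 1 had an unadjusted p under 0.05, and DESeq2 called 1, *Pth1r*, beside 0.259% of genes called by edgeR and 2.79% by DESeq2. *Col10a1* stood at -0.74 ± 0.49 there (adjusted p = 0.525) and *Pth1r* at -0.82 ± 0.17 (adjusted p = 0.0623). The KO mice were 1 female and 2 males at 10-dpf and 3 females at 14-dpf, so this change leans on the sex term. Other settings with all mice gave -1.12 to -0.66 for *Col10a1* in KO. Its fall in WT ran from -2.77 to -1.99 with a mouse left out, with the call kept. The change of the genotype difference from 10- to 14-dpf was called for 0 of 5 by edgeR and by DESeq2, with 1 unadjusted p under 0.05, beside 0.436% of genes called by edgeR and 2.36% by DESeq2. For *Col10a1* it was 1.79 ± 0.71 (adjusted p = 0.309), and 0.93 to 2.43 with a mouse left out.

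Per kilobase of exon, a scale that takes account of gene length, *Col10a1* went from the least to the most abundant of the 5 in WT. Its level was 0.311 ± 0.147 CPM per kilobase at 3-dpf (SD, n = 4), 1132 ± 298 at 6-dpf (SD, n = 5), 3578 ± 480 at 10-dpf (SD, n = 4) and 747 ± 394 at 14-dpf (SD, n = 4). *Pth1r* came next from 6-dpf on, at 95.5 ± 10.4 (SD, n = 5), 126 ± 17.1 and 82.1 ± 9.22 CPM per kilobase (SD, n = 4 each). That place rests on a length summed over all annotated exons, 17132 bases for *Mef2c* and 4774 for *Pth1r*. In CPM the WT mean of *Mef2c* was above that of *Pth1r* at 10-dpf (620 against 600) and 14-dpf (524 against 392). WT *Mef2c* ran from 11.2 ± 1.06 at 3-dpf to 36.2 ± 3.11 CPM per kilobase at 10-dpf, *Runx3* from 5.10 ± 0.321 at 3-dpf to 8.27 ± 0.633 at 6-dpf and *Pthlh* between 0.602 and 0.687 (means). In the order of group means of CPM, *Col10a1* was highest in WT at 10-dpf, then KO at 10-dpf, WT at 6-dpf, KO at 14-dpf, WT at 14-dpf, KO at 6-dpf and both groups of 3-dpf. Neighbours whose ranges overlapped were WT at 6-dpf with KO at 14-dpf, KO with WT at 14-dpf, and the 2 groups of 3-dpf. *Pth1r* was highest in the 3 WT groups of 10-, 6- and 14-dpf, and the one gap between neighbours lay between KO at 10-dpf and KO at 14-dpf. *Mef2c* peaked in WT at 10-dpf and its one gap lay between KO at 10-dpf and WT at 6-dpf. *Runx3* peaked in WT at 6-dpf, apart from KO at 6-dpf, with overlap between all further neighbours. *Pthlh* showed overlap between every pair of neighbours.

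Ratios within a library do not depend on scaling, and put the collagen switch and the ligand against its receptor. The ratio of *Col10a1* to *Col2a1* counts was 0.122, 0.199, 0.173, 0.134 and 0.120 in WT and 0.270, 0.257 and 0.198 in KO at 6-dpf. The highest WT mouse just met the lowest KO mouse. At 10-dpf it was 0.881, 0.757, 0.528 and 1.12 in WT and 1.88, 1.23 and 1.46 in KO, without overlap. Every KO callus of 10-dpf thus held more *Col10a1* per *Col2a1* than any WT callus. The mean log2 difference was 0.71 at 6-dpf (exact permutation p = 0.0714), 0.92 at 10-dpf (exact p = 0.0571, the smallest that 3 against 4 mice can give) and 0.72 at 14-dpf (exact p = 0.229). At 14-dpf the ratios were 1.22, 0.874, 0.926 and 1.48 in WT and 2.92, 0.897 and 2.26 in KO. The ratios at 3-dpf, 0.0162 to 0.0614 in WT and 0.0112 to 0.305 in the libraries labelled KO, rest on few *Col10a1* reads and overlapped (0.48, exact p = 0.771).

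Against *Acan*, the core protein of aggrecan, the ratio went the other way at 6-dpf. It was 0.549, 0.819, 0.761, 0.548 and 0.581 in WT and 0.275, 0.192 and 0.193 in KO, a log2 difference of -1.57 without overlap (exact p = 0.0357, the smallest that 5 against 3 mice can give). At 10- and 14-dpf the genotypes overlapped, at -0.07 and -0.09 (exact p = 0.800 each), with ratios of 2.36 to 4.89 in WT and 2.58 to 4.23 in KO over both days. The 3-dpf difference was 0.84 (exact p = 0.343). *Pthlh* reads per *Pth1r* read were 0.00366, 0.0011, 0.00259, 0.00414 and 0.00245 in WT and 0.0129, 0.0235 and 0.0248 in KO at 6-dpf, 7.71 times higher in KO without overlap (exact p = 0.0357). They were 0.000945, 0.000512, 0.00336 and 0.00294 in WT and 0.00314, 0.00549 and 0.0109 in KO at 10-dpf, with overlap (3.87 times, exact p = 0.114). At 14-dpf they were 0.00404, 0.00317, 0.0032 and 0.0018 in WT and 0.0106, 0.0116 and 0.017 in KO, again without overlap (4.36 times, exact p = 0.0571). At 3-dpf they were 1.10 times the WT ratio, with overlap (exact p = 0.886). These two-sided exact permutation tests number 12. Of them 2 had an unadjusted p under 0.05, and 0 passed after adjustment over all 12, the lowest adjusted p being 0.171. That outcome was fixed by the numbers of mice, since the lowest adjusted p these 12 tests can give is 0.0571, and it says nothing for or against a difference.

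**Figure D3:**
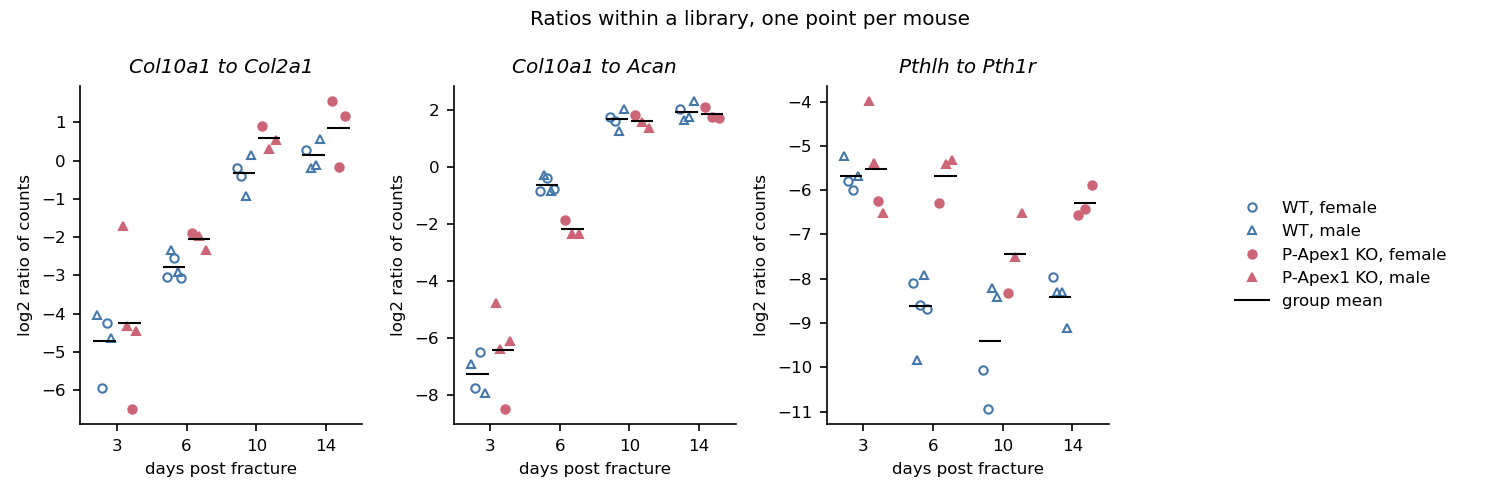
Log2 ratios of counts within each library for *Col10a1* to *Col2a1*, *Col10a1* to *Acan* and *Pthlh* to *Pth1r* against days post fracture, 1 point per mouse and a line at each group mean. The *Col10a1* to *Acan* ratio separates the genotypes at 6-dpf and joins them at 10- and 14-dpf, while *Pthlh* to *Pth1r* lies higher in all KO mice at 6- and 14-dpf.

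The other genes of the PTHrP-IHH loop (14 listed, with the hedgehog receptors, GLI factors, the HDAC4 arm and *Nkx3-2*) moved in the direction of *Col10a1* and *Pth1r* at 6-dpf where they passed the test. Of 14 tested, 7 were lower and 0 higher, with a median log2 fold change of -0.66 beside 0.01 for all genes. *Ihh*, the signal from prehypertrophic cells, went from 42.1 to 90.2 CPM in WT to 2.35 to 16.3 CPM in KO (-2.82 ± 0.59, adjusted p = 0.0278), and the highest member of the list was *Hdac4* (0.36, adjusted p = 0.0737), the histone deacetylase that restrains MEF2C. At 10-dpf 2 of 14 were lower (median -0.25), the lowest being *Gli2*, a hedgehog effector (-0.77, adjusted p = 0.0114), and *Hdac4* was at 0.16 (adjusted p = 0.251). *Ihh* was 95.2 to 137 CPM in WT and 63.8 to 113 CPM in KO (-0.48 ± 0.21, adjusted p = 0.220). At 14-dpf 2 were lower and 1 higher (median 0.10 beside 0.04), with *Gli2* at -1.11 (adjusted p = 0.0306) and *Ihh* at 2.17 ± 0.46 (adjusted p = 0.0274). Without the sex term 4 were lower and 0 higher (median -0.20), with 37.2% of all genes called. Like *Col10a1*, *Ihh* lost its call as higher without the sex term (0.52, adjusted p = 0.434). Its ranges overlapped, 6.86 to 31.2 CPM in WT and 20.3 to 43.7 CPM in KO. Beside the counts of this list with sex in the model, 5.61% of all genes were lower at 6-dpf, 3.44% at 10-dpf and 7.04% at 14-dpf. Higher were 5.31%, 3.01% and 4.28%. For 3-dpf DESeq2 called 0.428% of all genes, and 6.12% had an unadjusted p under 0.05. At 3-dpf *Ihh* was too scarce to be tested, at 3 to 6 reads per library, and 0 of the 13 genes tested passed edgeR's test or DESeq2's (2 had an unadjusted p under 0.05), from *Zfp521* (-0.49) to *Hdac4* (0.30), each at an adjusted p of 0.768.

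The transcription factors known to drive or permit hypertrophy (13 listed) were lower for 7 of 12 tested at 6-dpf and 0 were higher (median -0.78). *Foxa3*, a forkhead factor of hypertrophic cartilage, was lowest (-3.21, adjusted p = 0.00225) and *Fosl2* highest (0.09, adjusted p = 0.749). *Runx2*, the main RUNX factor of hypertrophy and of osteoblasts, had 152 to 166 CPM in WT and 89.0 to 108 CPM in KO (-0.66 ± 0.09, adjusted p = 0.00248). It was lower at 10-dpf too (-0.87 ± 0.11, adjusted p = 0.00798), with 265 to 412 and 155 to 194 CPM, and at 14-dpf (-1.29 ± 0.23, adjusted p = 0.0147), with 305 to 362 and 117 to 195 CPM, without overlap on any of these days. *Runx3* itself was called on none of them by edgeR's fit of each day. At 10-dpf 5 of 12 were lower and 0 higher (median -0.27), from *Dlx3*, a homeobox factor of bone and hypertrophic cartilage (-1.89, adjusted p = 0.00933), to *Foxa3* (0.46, adjusted p = 0.261). At 14-dpf 5 were lower and 2 higher (median -0.55), from *Dlx3* (-2.84, adjusted p = 0.000928) to *Foxa3* (4.11, adjusted p = 0.00685). Without the sex term 7 were lower and 0 higher, with 37.2% of all genes called. With sex in the model, 5.61% of all genes were lower at 6-dpf, 3.44% at 10-dpf and 7.04% at 14-dpf. Higher were 5.31%, 3.01% and 4.28%. For 3-dpf DESeq2 called 0.428% of all genes, and 6.12% had an unadjusted p under 0.05. At 3-dpf 0 of 10 passed by edgeR or DESeq2 (1 unadjusted p under 0.05), from *Dlx6* (-0.56, adjusted p = 0.879) to *Mef2d*, a paralog of *Mef2c* (0.11, adjusted p = 0.876), and *Runx2* was at -0.22 ± 0.15 (adjusted p = 0.877).

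Further genes of hypertrophic and terminal chondrocytes (12 listed, from matrix enzymes to phosphatases, several of them also made by osteoblasts) were lower for 9 of 12 at 6-dpf and higher for 0 (median -1.43). *Smpd3*, a sphingomyelinase needed for mineralization, was lowest (-3.15, adjusted p = 0.00106) and *S100a1* highest (-0.02, adjusted p = 0.949). *Mmp13*, the collagenase of late hypertrophic cells, did not differ past the threshold then, with 482 to 652 CPM in WT and 423 to 529 CPM in KO (-0.16 ± 0.12, adjusted p = 0.472). At 10-dpf it was the lowest of the list, with 2806 to 4649 CPM in WT and 1175 to 1765 CPM in KO (-1.24 ± 0.23, adjusted p = 0.0223). Of the 12 genes 5 were lower and 1 higher on that day (median -0.51), the latter being *Slc1a3*, a glutamate transporter (0.64, adjusted p = 0.0493). At 14-dpf 2 were lower and 1 higher (median -0.34), from *Phospho1*, a phosphatase of mineralization (-1.92, adjusted p = 0.00209), to *Slc1a3* (1.40, adjusted p = 0.021), and *Mmp13* was at -0.58 ± 0.48 (adjusted p = 0.476). Without the sex term 4 were lower and 1 higher, with 37.2% of all genes called. In the fits with that term 5.61% of all genes were lower at 6-dpf, 3.44% at 10-dpf and 7.04% at 14-dpf. Higher were 5.31%, 3.01% and 4.28%. For 3-dpf DESeq2 called 0.428% of all genes, and 6.12% had an unadjusted p under 0.05. At 3-dpf 0 of 12 passed by edgeR or DESeq2 (2 unadjusted p under 0.05), from *Slc1a3* (-0.58, adjusted p = 0.768) to *Phospho1* (0.40, adjusted p = 0.828), and *Mmp13* was at 0.09 ± 0.58 (adjusted p = 0.986).

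The genes of cartilage matrix with *Sox9* (12 listed) are the general genes of chondrocytes, made before and beside hypertrophy. All 12 were lower at 6-dpf (median -2.98), from *Matn1*, matrilin 1 (-5.03, adjusted p = 0.00041), to *Sox9*, the master factor of chondrocytes (-1.83 ± 0.28, adjusted p = 0.00589), with *Col2a1* at -4.68 ± 0.32 (adjusted p = 0.000271) and *Acan* at -2.44 ± 0.26 (adjusted p = 0.00106). At 10-dpf 0 of 12 passed edgeR's test (median -0.22), beside 6.46% of all genes. An unadjusted p under 0.05 was found for 3 (24.3% of all genes), and DESeq2 called 3 (11.6%). The unadjusted count is thus near the share of all genes. By edgeR the list ran from *Col2a1* (-1.62 ± 0.39, adjusted p = 0.052) to *Matn3* (0.41, adjusted p = 0.604). *Acan* was at -0.60 ± 0.28 (adjusted p = 0.229) and *Sox9* at 0.28 ± 0.30 (adjusted p = 0.624). At 14-dpf 10 were higher and 2 lower (median 2.94), from *Col11a2* (-1.90, adjusted p = 0.00792) to *Matn3* (4.15, adjusted p = 0.0128), with *Col2a1* at 1.84 ± 0.33 (adjusted p = 0.0132), *Acan* at 2.61 ± 0.39 (adjusted p = 0.00713) and *Sox9* at 2.24 ± 0.49 (adjusted p = 0.0321). Without the sex term 1 was higher and 2 were lower (median 0.95, with 37.2% of all genes called). Without the WT female as well 4 were higher and 2 lower (median 0.64, with 34.1% of all genes called). *Col2a1* then stood at -0.50 (adjusted p = 0.109). In the fits with sex, 5.61% of all genes were lower and 5.31% higher at 6-dpf, and 7.04% lower and 4.28% higher at 14-dpf. At 3-dpf 0 of 11 passed by edgeR or DESeq2 or at an unadjusted p under 0.05 (median -0.41), from *Col9a2* (-0.86, adjusted p = 0.826) to *Col2a1* (0.08 ± 0.46, adjusted p = 0.985), with *Acan* at -0.58 ± 0.30 (adjusted p = 0.851) and *Sox9* at -0.54 ± 0.36 (adjusted p = 0.875).

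**Figure D4:**
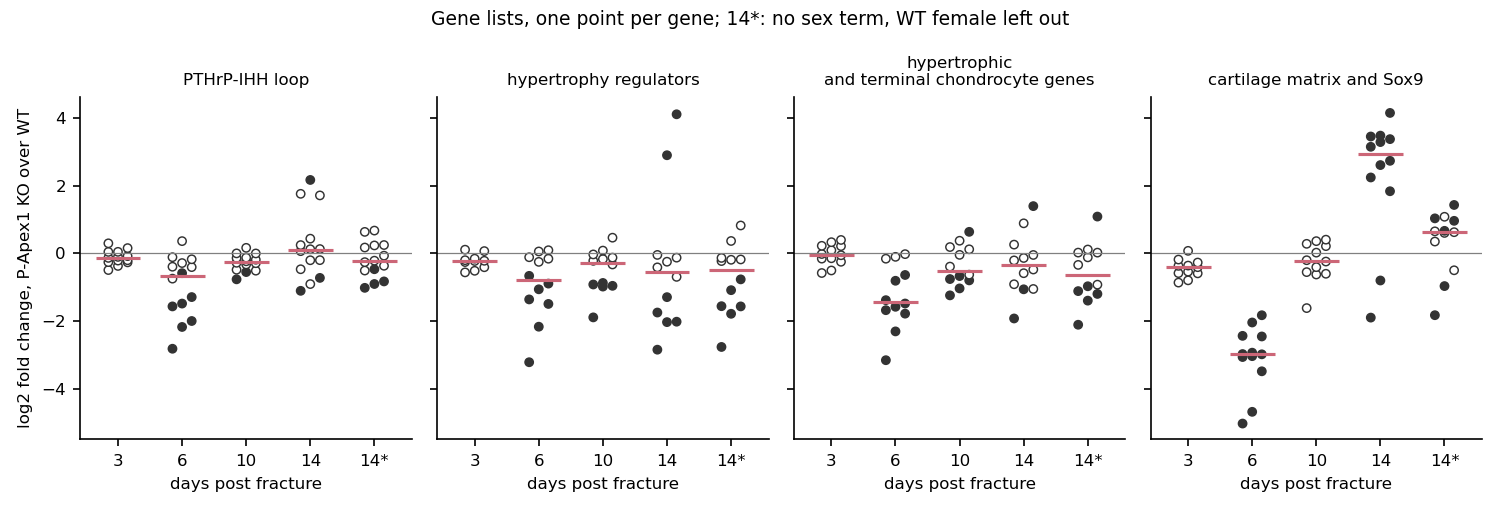
Log2 fold change of P-Apex1 KO over WT for each tested gene of the 4 lists at 3, 6, 10 and 14 days post fracture, with filled points past an adjusted p of 0.05 and red lines at the list medians; the column marked with an asterisk is 14-dpf with no sex term and without the WT female. The 12 cartilage genes lie below 0 at 6-dpf, and their 14-dpf median moves from 2.94 to 0.64 in the last column.

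Markers of other cells moved with genotype beside these results, and their part in them was not tested. Of all genes edgeR called 5.31% higher and 5.61% lower at 6-dpf, 3.01% and 3.44% at 10-dpf, and 4.28% and 7.04% at 14-dpf. A single gene called in a list of 10 does not stand apart from such shares. An unadjusted p under 0.05 held for 26.2%, 24.3% and 27.6% of genes on these days, and DESeq2 called 16.2%, 11.6% and 15.1%. At 6-dpf all 10 skeletal muscle genes were higher in KO, with a summed level of 8849.9 to 19444 CPM against 3665 to 6715 CPM in WT, as were 8 of 10 macrophage genes (sum 1288 to 1503 against 739 to 932 CPM) and 7 of 10 T and NK cell genes (68.8 to 105 against 44.3 to 62.7 CPM). Of 9 B cell genes 3 were higher, and of 10 endothelial genes 0 were called by edgeR or DESeq2 or at an unadjusted p under 0.05. Osteoblast and osteocyte genes, from cells that also carry *Pth1r*, were lower for 7 of 10 and higher for 1 at 6-dpf, lower for 5 at 10-dpf and lower for 7 at 14-dpf, and their sum did not overlap between genotypes on these days (57520 to 79672 against 26586 to 41848 CPM, 71919 to 97161 against 32815 to 48464 CPM and 123736 to 169584 against 31787 to 32629 CPM). At 10-dpf 6 macrophage genes and 3 T and NK cell genes were higher, 1 endothelial gene was lower, and edgeR called 0 muscle and 0 B cell genes. All 10 muscle genes had an unadjusted p under 0.05 there and DESeq2 called 5 of them, with sums of 1227 to 4164 CPM in WT and 3703 to 7819 CPM in KO, beside the lower *Pth1r* and *Mef2c*. For B cells these counts were 4 and 2. At 14-dpf 5 macrophage genes were higher and 2 lower, 5 endothelial genes lower and 1 higher, 1 T and NK cell gene higher, and 0 muscle and 0 B cell genes were called by edgeR. At an unadjusted p under 0.05 these were 0 and 8 genes, and by DESeq2 0 and 6. At 3-dpf edgeR called 0 genes of any of these lists. But all 10 muscle genes had an unadjusted p under 0.05 (6.12% of all genes) and DESeq2 called 6 (0.428% of all genes). Their sums were 4096 to 5858 CPM in WT and 5952 to 13536 CPM in the libraries labelled KO. Of the other lists 1 macrophage gene passed in both ways. No marker was at 0 in all libraries of a group, and 1 cartilage gene was at 0 in some of the WT libraries of 3-dpf.

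Across all 30 libraries the gene most like *Col10a1* was *Ihh*, with a Pearson r of 0.985 of log2 CPM among 13795 genes that encode proteins and average 1 CPM or more. *Snorc*, *Nebl*, *Frzb* and *Clec3a* followed (0.981, 0.978, 0.978 and 0.975). Such correlations follow time and genotype, which the points share, and within groups the r of *Ihh* was 0.658. *Pth1r* was most like *Smpd3* (0.986, and 0.939 within groups), then *Col11a2*, *Rftn2*, *Plcd1* and *Plxnb1* (0.976, 0.975, 0.974 and 0.973). *Mef2c* was most like *Itga1* (0.953, and 0.546 within groups), then *Atosa*, *Fat1*, *Cpe* and *Lrp4* (0.951, 0.950, 0.950 and 0.949), and *Runx3* most like *Tcf7l1* (0.891, and 0.607 within groups), then *Smtn*, *Zfhx3*, *Septin5* and *Bcl9* (0.882, 0.858, 0.858 and 0.853). For *Pthlh* the highest r was 0.775, with *Tppp3* (0.790 within groups), then *Wnt9a*, *Ginm1*, *Lgi4* and *Sema3c* (0.771, 0.749, 0.715 and 0.712). Among the 5 genes, *Col10a1* ran with *Pth1r* (0.892) and *Mef2c* (0.883) over the 30 libraries, but within groups these were 0.128 and -0.20. *Runx3* kept an r of 0.477 with *Col10a1* and 0.547 with *Pth1r* within groups. Its r there was -0.68 with the muscle markers, 0.634 with the cartilage genes and -0.49 with the macrophage markers. For *Pth1r* the r within groups was 0.719 with the cartilage genes and 0.566 with the osteoblast and osteocyte markers. These are the strongest values of each gene over the marker lists. *Pthlh* had an r of 0.04 with *Pth1r* over all libraries, and of 0.656 with the macrophage markers within groups. All are descriptions over libraries that share depth, cell makeup and scaling.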

How the data were processed

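Total RNA of 30 calluses was depleted of rRNA and globin transcripts, made into stranded libraries and sequenced from both ends. The authors aligned the reads to mm39 with STAR 2.7.0d, kept unique alignments on the reverse strand and counted them per Ensembl gene with featureCounts. The deposited values are raw counts without normalization, and the alignment was not repeated here. Depth, 18334389 to 43111491 counted reads per library, limits scarce genes such as *Pthlh* most, and reads that fit several places are missing. Groups, sex and days came from the labels. Symbols and positions came from GENCODE M39 (54749 of 55416 IDs), promoter windows from RefSeq on GRCm38.p6. In 30 libraries no 2 held identical counts.

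Each time point was fitted in R 4.3.3 with edgeR 4.0.16: filterByExpr with the design, TMM, a model of genotype and sex, and robust quasi-likelihood F tests, with p-values adjusted by Benjamini-Hochberg. Models of 2 time points gave changes over time. Ratios were log2 of counts with 0.5 added, compared by exact two-sided permutation over mice (Python, scipy) with adjustment over 12 tests. The fits were tested on simulated data. Alternatives were DESeq2 1.42.0, other scaling, other filters, no sex term, the replicate number as a block, the 20 most abundant genes left out, all 30 samples in 1 model and each mouse left out. Chosen after the data were seen were the sex term as a value, and 14-dpf without that term with and without the WT female. The members and lists were chosen with earlier results of these data known. By rule, named were the 5 genes, the ends of each list at each time point, *Ihh*, *Runx2*, *Col2a1*, *Acan*, *Sox9*, *Mmp13*, *Apex1* and the 5 genes most like each member. Lists were described by counts and medians, with no set test. *Vpreb1* of the B cell list was not matched in the table.

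Same-numbered KO and WT mice were compared by the correlation of their deviations from the group means. At 3-dpf all 4 same-numbered pairs were above 0.1 (0.115 to 0.622), but some differently numbered pairs were too. KO replicate 3 was closer to WT replicate 2 (0.434) than to WT replicate 3 (0.335). KO replicate 4 was closer to WT replicate 3 (0.231) than to WT replicate 4 (0.115). The correlations therefore do not establish pairs at 3-dpf, and the block changed no call there. At 6-, 10- and 14-dpf some same-numbered pairs were below 0.1 (lowest -0.19, -0.25 and -0.41), so the numbers were not taken as pairs.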

Additional observations from a re-analysis of the deposited data

Results flagged for a closer look

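*Col10a1* had a genotype difference that changed between time points by edgeR's test of the change itself, which was -4.13 on the log2 scale from 3- to 6-dpf (10 such changes were tested over the 5 genes). Among the 25 sets of 4 or 5 mice examined, 2 had a mouse whose gap to its nearest neighbour passed Dixon's 95% critical value, and chance alone gives about 1 in 20. *Pth1r* was 39.3 CPM in WT replicate 3 of 3-dpf, with the next WT mouse at 57.7 CPM. *Runx3* was 22.4 CPM in WT replicate 1 of 14-dpf, the only WT female of that day, with the next WT mouse at 30.4 CPM.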

How the results depend on the processing

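Of the 5 genes, the number past the threshold at 6-dpf was 2, and 4 under DESeq2, which called 16.2% of all genes against 10.9% (2 to 3 with each mouse left out). At 10-dpf it was 2, and 1 with library size alone, no sex term, the replicate block or all 30 samples in 1 model (0 to 2 with a mouse left out: 0 without KO replicate 1 or WT replicate 1). At 14-dpf it was 2, and 1 with the 20 most abundant genes left out (*Col10a1* is then removed itself), no filter, no sex term or the replicate block (1 to 2 with a mouse left out). With all 30 samples it stayed 2, but *Col10a1* lost its call (0.80, adjusted p = 0.223) and *Runx3* gained one. The sex-adjusted fit could not be fitted without WT replicate 1. The change of the genotype difference from 3- to 6-dpf called 1, and 2 under DESeq2, a minimum of 10 counts in every sample or all 30 samples (1 to 2 with a mouse left out). The change from 3- to 6-dpf in KO called 3, and 1 under the replicate block (1 to 4 with a mouse left out). From 10- to 14-dpf KO called 0, and 1 under DESeq2, no filter, no sex term or the replicate block (0 to 1 with a mouse left out, 1 without WT replicate 4 of 10-dpf), and WT called 2, and 1 with the 20 most abundant genes left out or all 30 samples. *Runx3* at 14-dpf turned from 0.06 to -0.40 without the sex term and the WT female and to -0.43 with all 30 samples. The causes were not tested, apart from the removal named. Of 1038 values of single genes under alternatives, 986 kept their side of the threshold. Direction was not part of that count where neither fit passed. *Col10a1* at 3-dpf, for example, ran from -0.47 to 0.59 with a mouse left out. The 12 ratios could not pass the threshold in this design, so their alternatives say nothing about stability.

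At 3-dpf the 4 same-numbered pairs deviated together, but so did some differently numbered pairs, which leaves the pairing unsettled. With the block the number of the 5 genes past the threshold stayed 0 there. At the later days same-numbered mice did not all deviate together, so their numbers were not taken as pairs. With the block *Col10a1* at 14-dpf was 0.97 (adjusted p = 0.447).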
